A study of Mus musculus with 22 samples.

Results

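Integrins and laminins are the main pair of receptor and ligand through which cells hold on to the matrix around them. An integrin is a dimer of an alpha and a beta chain that spans the cell membrane and ties matrix outside the cell to the cytoskeleton inside it. A laminin is a trimer of an alpha, a beta and a gamma chain that forms the sheet-like basement membrane under epithelia and around muscle fibres, fat cells, nerves and vessels. In loose connective tissue, fibroblasts use integrins mainly to grip fibronectin and collagen, while leukocytes carry integrin chains of their own for adhesion and phagocytosis.

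The genes described here are the integrin subunits and laminin chains measured on the array, 31 of 12393 genes with a probe of 1 gene symbol. They were chosen by name alone, and genes with similar names that encode no such chain (Itgb1bp1, Itgb1bp2, Itgb2l, Itgb3bp, Itgbl1) were left out. There were 14 integrin alpha chains, 7 integrin beta chains and 10 laminin chains (5 alpha, 3 beta and 2 gamma). These genes had 56 probes, and each gene was read from the probe whose mean over the 22 samples was highest. All 31 were tested, with no filter on low values, and 11 had a mean signal below 6 on the log2 scale, where arrays separate levels poorly.

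The study measured RNA of loose connective tissue from beneath the trunk skin of male C57BL/6 mice of 19 to 24 g, with no other genotype or agent named in the labels. The groups were ex vivo stretched (n = 4), ex vivo shortened (n = 4), in vivo stretched (n = 7) and in vivo shortened (n = 7) tissue. Each of 11 animals gave 1 stretched and 1 shortened piece, allotted at random, so the stretch comparisons are within animals. How hard and how long a piece was held is not stated in the labels, and the tissue was not sorted, so each sample is a mixture of cell types.

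Values are deposited log2 signals, whose sample medians lay between 6.85 and 6.90 ex vivo and between 7.28 and 7.41 in vivo. Fibroblast markers averaged between 10.58 and 11.05 in ex vivo samples and between 11.99 and 12.45 in in vivo samples. Skeletal muscle markers were also present, with a mean level of 4.91 to 8.87 in ex vivo stretched, 4.94 to 5.32 in ex vivo shortened, 5.24 to 9.83 in in vivo stretched and 5.26 to 9.42 in in vivo shortened tissue. Pieces of 1 animal differed most in this muscle level in ex vivo animals 4 and 3, at 3.55 and 2.81 (stretched minus shortened), and in in vivo animals 5 and 6, at 3.96 and 2.06. The SE given for a gene is that of its limma coefficient, and precision is limited by the number of arrays.

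In vivo, the comparison asked whether stretched tissue differed from shortened tissue of the same animal. No integrin or laminin gene passed an adjusted p of 0.05 with limma, and 0% of all genes did. At an unadjusted p under 0.05 there were 11 members of 31, 2 higher and 9 lower in stretched tissue, against 21.7% of all genes (9.05% higher and 12.7% lower). The lower members were the laminin chains Lamb3, Lama2, Lamb2 and Lamc1 and the integrin chains Itgav, Itgam, Itgb7, Itgb2 and Itgb4. The higher members were Itgae and Itga7. Over all members the median difference was -0.06, against -0.01 for all genes, and 20 of 31 were lower.

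Among laminin chains, Lamb3, the beta chain of the laminin that anchors epithelia, had log2 signals of 5.81, 5.89 and 6.16 in in vivo stretched tissue and 6.00, 6.23 and 6.28 in in vivo shortened tissue (lowest, median and highest of 7). The groups overlapped, but the stretched piece was the lower one in 7 of 7 animals, by 0.10 to 0.42. The mean difference was -0.26 (SE 0.07, adjusted p = 0.172). Lama2, the alpha chain of the basement membrane around muscle and nerve fibres, had 11.43, 11.81 and 12.04 in in vivo stretched and 11.77, 12.03 and 12.18 in in vivo shortened tissue. It too was lower in stretched tissue in 7 of 7 animals although the groups overlapped, and its mean difference was -0.18 (SE 0.05, adjusted p = 0.172). Lamb2, a beta chain of vessel and synapse basement membranes, differed by -0.21 (SE 0.08, lower in 6 of 7 animals, adjusted p = 0.214), and Lamc1, the gamma chain of most laminins, by -0.13 (SE 0.06, lower in 5 of 7, adjusted p = 0.259). The remaining laminin chains Lama1, Lama3, Lama4, Lama5, Lamb1 and Lamc3 lay between -0.07 and 0.13.

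Among the integrin chains of leukocytes, Itgam, the alpha chain of the complement receptor on macrophages and neutrophils, had 9.16, 9.63 and 10.22 in in vivo stretched and 9.53, 9.93 and 10.42 in in vivo shortened tissue. It was lower in the stretched piece of 6 of 7 animals, with overlapping groups and a mean difference of -0.34 (SE 0.10, adjusted p = 0.172). Itgb2, the beta chain that pairs with Itgam, Itgal and Itgax, differed by -0.24 (SE 0.08, lower in 6 of 7, adjusted p = 0.174). Itgb7, which pairs with Itga4 and Itgae in gut-homing lymphocytes, differed by -0.36 (SE 0.11, adjusted p = 0.172) and was lower in 7 of 7 animals, by 0.01 to 0.99. Its partner Itgae, which binds E-cadherin, differed the other way. Itgae had 5.26, 5.47 and 5.60 in in vivo stretched and 4.91, 5.27 and 5.45 in in vivo shortened tissue, and was higher in the stretched piece of 7 of 7 animals, by 0.22 on average (SE 0.07, adjusted p = 0.174). Itgal and Itgax differed by -0.03 and -0.06.

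Markers of macrophages had lower means in stretched tissue in the same comparison. Of 18 markers 18 had a lower mean. At an unadjusted p under 0.05 there were 13, all lower, against 12.7% of all genes, and none passed the adjusted threshold. The mean macrophage level was lower in the stretched piece of 5 of 7 animals and higher in 2. It was 11.31 to 11.73 in in vivo stretched and 11.43 to 11.81 in in vivo shortened tissue. Lymphocyte markers, 14 in all, lay at 5.67 to 6.17 in in vivo stretched and 5.73 to 5.99 in in vivo shortened tissue, with 8 higher and 6 lower. Neutrophil markers lay at 5.69 to 6.28 and 5.54 to 6.05 in these groups, with 8 of 13 higher. Of these, 5 had an unadjusted p under 0.05, and no neutrophil marker was lower at that level. The mean neutrophil level was higher in the stretched piece of 6 of 7 animals. In bulk tissue, fewer cells of a type and less RNA per cell cannot be told apart, and the part these cells played in the leukocyte chains was not tested.

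Among receptors for laminin, Itga7, the laminin receptor of muscle fibres, had 6.74, 8.42 and 9.37 in in vivo stretched and 7.43, 7.85 and 8.34 in in vivo shortened tissue. The stretched samples spread over the whole shortened range, and animal 1 went the other way from the other 6. Its mean difference was 0.43 (SE 0.19, higher in 6 of 7, adjusted p = 0.244). Sarcomere markers had higher means too, 22 of 28, with 20 at an unadjusted p under 0.05. Smooth muscle markers had a higher mean for 7 of 9, 2 of them at that level. With muscle level as a covariate the Itga7 difference was 0.21 (SE 0.25). In animals 1 to 7 Itga7 differed by -0.73, 0.83, 1.03, 0.25, 0.74, 0.05 and 0.85. The skeletal muscle level differed by -0.01, 0.37, 1.59, -0.28, 3.96, 2.06 and 1.40. The part of skeletal or smooth muscle cells in Itga7 was not tested. Itgb4, the beta chain of the hemidesmosome and of nerve sheaths, differed by -0.31 (SE 0.11, lower in 6 of 7, adjusted p = 0.182). Markers of Schwann cells and nerve were lower for 10 of 10, at 8.81 to 9.26 in in vivo stretched and 8.71 to 9.70 in in vivo shortened tissue, and those of keratinocytes had a higher mean for 9 of 15. The mean nerve level was lower in the stretched piece of 6 of 7 animals. The mean keratinocyte level was lower in the stretched piece of 6 of 7 animals and higher, by 0.56, in animal 5. The part of these cells in Itgb4 was not tested. Itga3 and Itga6, the alpha chains of epithelial and vascular laminin receptors, differed by -0.03 and -0.14.

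Among receptors of fibronectin and vitronectin, Itgav, the alpha chain shared by several dimers, had 10.45, 10.94 and 11.04 in in vivo stretched and 10.80, 11.003 and 11.21 in in vivo shortened tissue. The groups overlapped, the stretched piece was lower in 6 of 7 animals, and the mean difference was -0.17 (SE 0.05, adjusted p = 0.172). Itga5, which with Itgb1 forms the main fibronectin receptor, differed by -0.11 (SE 0.06, adjusted p = 0.340), and Itgb1, the beta chain shared by most matrix receptors, by -0.06 (SE 0.04, adjusted p = 0.501). The members Itga2b, Itga8, Itgb3, Itgb5 and Itgb6 lay between -0.01 and 0.04. Itga2, a collagen receptor chain, and the leukocyte and muscle chains Itga4 and Itga9 lay at -0.02, -0.11 and -0.07, and Itga4 was lower in 7 of 7 animals. Lists of other cell types moved in the same comparison, with no marker past the threshold. Fibroblast markers had a lower mean in stretched tissue for 17 of 18, 9 of them at an unadjusted p under 0.05, adipocyte markers a higher one for 13 of 13, 6 of them at that level, and pericyte markers a higher one for 8 of 8, 3 of them at that level. Among all genes 12.7% were lower and 9.05% higher at that level. The mean fibroblast level was lower in the stretched piece of 6 of 7 animals. That of adipocytes was higher in 6 of 7 and that of pericytes in 5 of 7. The part of these cells in the matrix receptors and laminins was not tested. In all, 5 members had the same sign in 7 of 7 animals, 4 lower (Lamb3, Itgb7, Itga4, Lama2) and 1 higher (Itgae), against 5.82% of all genes (4.28% lower and 1.53% higher).

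**Figure D1:**
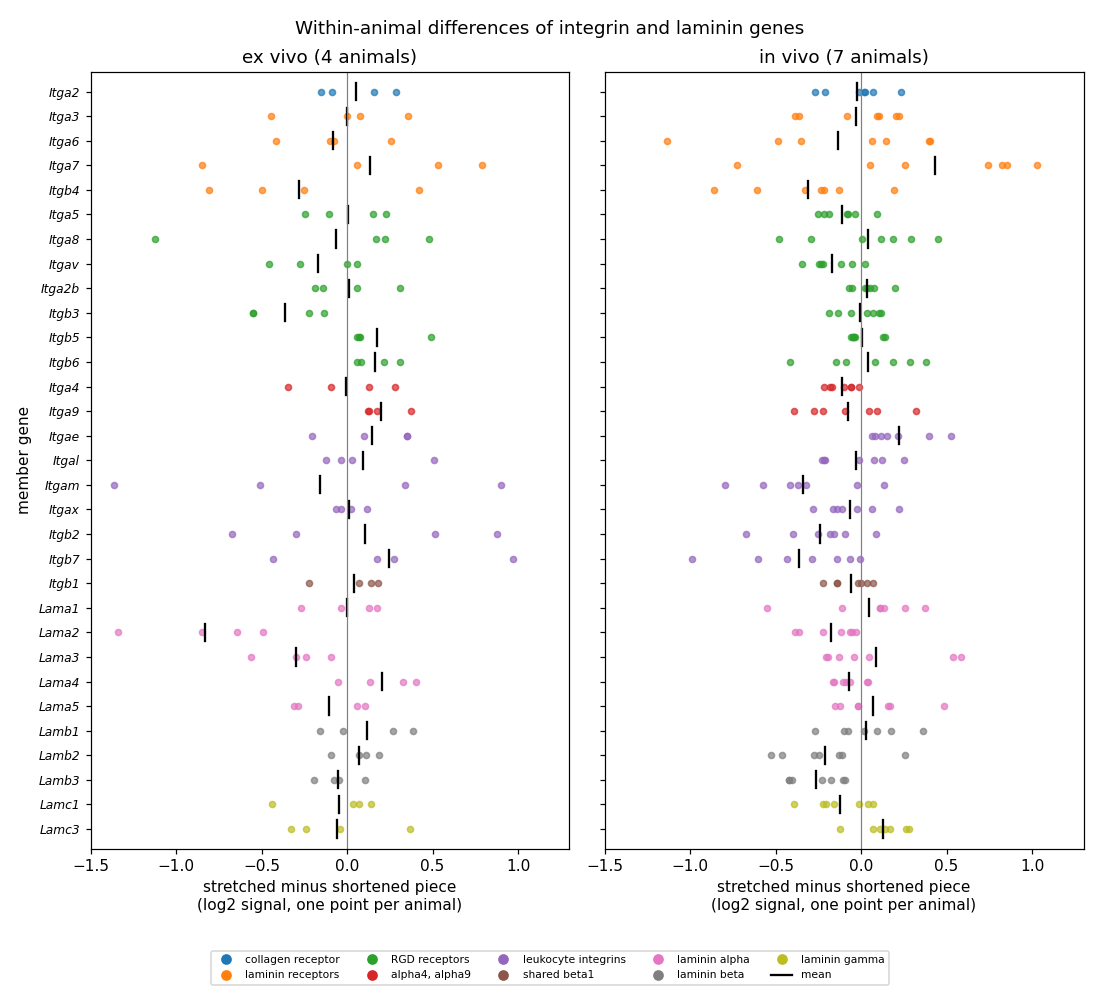
Difference of log2 signal between the stretched and the shortened piece of each animal, for 31 integrin and laminin genes, in 4 animals ex vivo (left) and 7 in vivo (right); points are animals, coloured by the role of the chain, and black ticks are means. The largest mean difference is that of Lama2 ex vivo, at -0.83, with 4 of 4 animals below 0.

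Ex vivo, the same question was put to tissue held outside the animal. No member passed an adjusted p of 0.05 with limma, nor did any other gene (0%). Of 31 members 3 had an unadjusted p under 0.05, all lower in stretched tissue, against 11.8% of all genes (5.9% higher and 5.87% lower). They were the laminin chains Lama2 and Lama3 and the integrin chain Itgb3. The median over the members was 0.01, the same as for all genes after rounding, with 17 higher and 14 lower.

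Lama2 had log2 signals of 8.90, 8.34, 8.47 and 8.16 in ex vivo stretched tissue of animals 1 to 4 and 9.39, 9.19, 9.81 and 8.80 in ex vivo shortened tissue. The stretched piece was lower in 4 of 4 animals, by 0.49, 0.85, 1.34 and 0.64, and the groups overlapped only in that animal 1 stretched lay above animal 4 shortened. The mean difference was -0.83 (SE 0.15, a 1.78-fold difference, adjusted p = 0.352). Fitted together with the in vivo samples, where all 22 arrays share 1 estimate of the spread, the same difference had an adjusted p of 0.00515, and 2.92% of all probes were called. Over all alternatives the adjusted p ran over 0.00515 to 0.945. It was -0.67 in the 2 animals whose pieces differed least in muscle level, and -0.72 with muscle level as a covariate.

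Lama3, the alpha chain that pairs with Lamb3 in epithelial laminin, had 4.05, 4.67, 4.77 and 4.37 in ex vivo stretched and 4.29, 4.97, 4.87 and 4.93 in ex vivo shortened tissue. It was lower in the stretched piece of 4 of 4 animals, and the difference of -0.30 (SE 0.11, adjusted p = 0.407) was at a low signal. Itgb3, the beta chain of the vitronectin receptor and, in platelets, of the fibrinogen receptor, had 5.94, 6.10, 5.87 and 5.75 in ex vivo stretched and 6.07, 6.33, 6.42 and 6.30 in ex vivo shortened tissue. Only animal 2 stretched reached above the lowest shortened value. The Itgb3 difference was -0.36 (SE 0.12, lower in 4 of 4, adjusted p = 0.389), and it was -0.18 without animals 3 and 4, whose pieces differed most in muscle level.

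Another 3 chains were higher in the stretched piece of every ex vivo animal, with small differences. These were Itgb5, a vitronectin receptor chain (0.17, SE 0.11), Itgb6, an epithelial chain that binds latent TGF-beta (0.17, SE 0.08), and Itga9, a receptor chain for tenascin (0.20, SE 0.10), with adjusted p of 0.485 to 0.588. The second Itga9 probe differed the other way, at -0.26 (SE 0.16). Of 14 members with several probes, all probes had the same sign in 7 ex vivo and in 10 in vivo. In all, 6 members had the same sign in 4 of 4 animals, 3 higher and 3 lower, against 20.9% of all genes (12% higher and 8.89% lower). Of the 6 leukocyte chains 5 had a higher mean in ex vivo stretched tissue, with a median over the chains of 0.10 against 0.01 for all genes. Itgb7 differed by 0.25 (SE 0.21), Itgae by 0.15 (SE 0.12), Itgb2 by 0.11 (SE 0.25), Itgal by 0.10 (SE 0.13) and Itgax by 0.01 (SE 0.09), none past the threshold. The remaining one, Itgam, had 5.53, 6.28, 7.50 and 5.58 in ex vivo stretched and 6.89, 5.94, 6.60 and 6.09 in ex vivo shortened tissue, with 2 animals on each side of 0 and a mean difference of -0.16 (SE 0.35, adjusted p = 0.902). Itga7 differed by 0.13 (SE 0.26, adjusted p = 0.885), Itgb1 by 0.04 (SE 0.09, adjusted p = 0.898), Itga5 by 0.01 (SE 0.11, adjusted p = 0.990) and Itgav by -0.17 (SE 0.10, adjusted p = 0.578). Sarcomere markers had a higher mean in ex vivo stretched tissue for 25 of 28, 10 of them at an unadjusted p under 0.05. Macrophage markers went both ways, 8 higher and 10 lower of 18 with a median of -0.02, and 1 higher and 2 lower at an unadjusted p under 0.05. The 3 of smallest p differed by -1.0004 for Cd163 (SE 0.18, adjusted p = 0.352), -0.63 for Csf1r (SE 0.12, adjusted p = 0.352) and 0.27 for Cd14 (SE 0.08, adjusted p = 0.386). The part of these cells in the differences of Lama2 and the other chains was not tested.

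**Figure D2:**
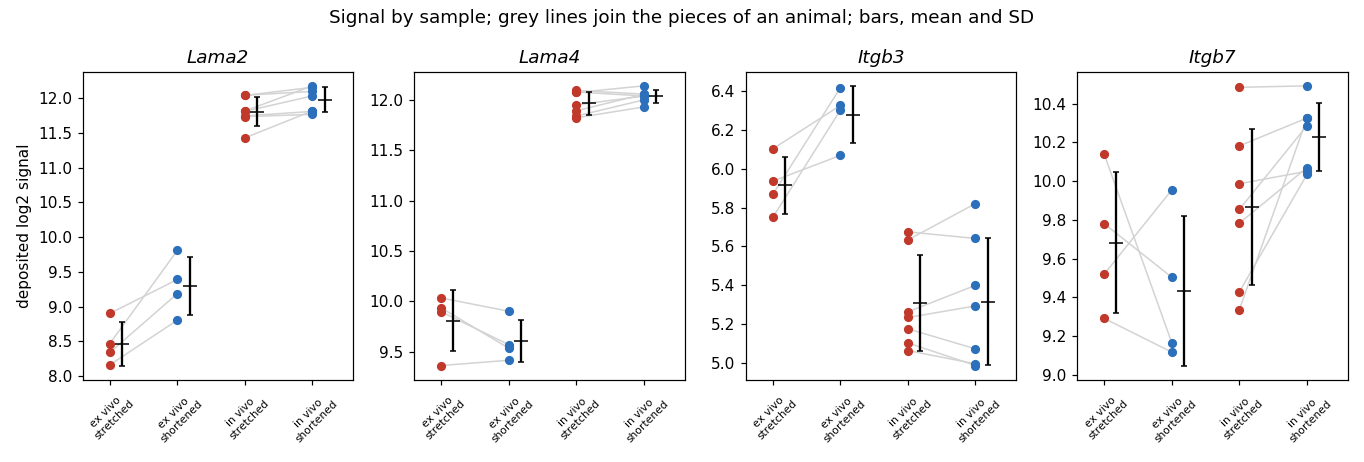
Log2 signal of Lama2, Lama4, Itgb3 and Itgb7 in each sample of the 4 groups; red points are stretched and blue points shortened pieces, grey lines join the pieces of an animal, and black bars are the mean and SD (n = 4 ex vivo, n = 7 in vivo). The ex vivo lines of Lama2 run from 8.16 to 8.90 in stretched tissue up to 8.80 to 9.81 in shortened tissue and the in vivo lines from 11.43 to 12.04 up to 11.77 to 12.18.

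The test of whether the stretch effect differed between the settings called no member, against 0.194% of all genes (0.0565% higher and 0.137% lower). At an unadjusted p under 0.05 there were 5 members, 2 higher and 3 lower, against 16.7% of all genes (9.68% higher and 6.98% lower). The effect ex vivo minus that in vivo was -0.65 for Lama2 (SE 0.14, adjusted p = 0.0749), -0.36 for Itgb3 (SE 0.12, adjusted p = 0.173) and -0.39 for Lama3 (SE 0.17, adjusted p = 0.316). It was 0.27 for Lama4, the alpha chain of vessel and fat cell laminin (SE 0.09, adjusted p = 0.164), and 0.61 for Itgb7 (SE 0.23, adjusted p = 0.246). Lama4 was higher in stretched tissue in 3 of 4 animals ex vivo, by 0.20 on average (SE 0.10), and in 2 of 7 in vivo, where it differed by -0.07 (SE 0.04). Markers of vessels and fat had negative medians for this difference of effects. These were -0.35 for endothelium (14 of 18 lower), -0.52 for pericytes (8 of 8 lower) and -0.38 for adipocytes (11 of 13 lower). The part of these cells in Lama4 was not tested. Lama2 passed the threshold without ex vivo animal 1 (adjusted p = 0.0164) or 4 (adjusted p = 0.0431) and with array weights (adjusted p = 0.0296), and Lama4 without ex vivo animal 4 (adjusted p = 0.0480). These fits called more of the array as well, at 2.93% of all probes without animal 1, 1.46% without animal 4 and 1.46% with array weights, against 0.177% of all probes in the fit of all animals. Over all alternatives the adjusted p ran over 0.0164 to 0.494 for Lama2, with effects of -0.77 to -0.48, and over 0.0480 to 0.854 for Lama4, with effects of 0.21 to 0.36. For Itga7, Itgb1, Itga5, Itgav and Itgam the difference of effects was -0.30 (SE 0.35), 0.10 (SE 0.09), 0.12 (SE 0.11), 0.00295 (SE 0.10) and 0.18 (SE 0.33).

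The largest differences among these genes lay between the settings. Ex vivo tissue was set against in vivo tissue separately for each kind of piece, after subtracting the median change over the array, which was -0.38 in both. In stretched tissue 23 of 31 members were called, 7 higher and 16 lower ex vivo, against 66.1% of all genes (29.5% higher and 36.6% lower). In shortened tissue 25 were called, 8 higher and 17 lower, against 68.9% of all genes (30% higher and 38.8% lower). Most genes of the array thus differed between the settings too, and the members' counts are read against that. In both kinds of piece 22 members were called in the same direction, 7 higher and 15 lower. The share of all genes called alike in both pieces was not computed, so this count is not read as particular to the members. Of the higher members, Itgb3, Itga2, Lamc3 and Lama1 had a mean signal below 6. Among probes with a mean of at least 6 the median change was -0.44 in stretched and -0.46 in shortened tissue. Without subtracting the median, 5 members were called higher and 20 lower in stretched tissue, and 5 higher and 21 lower in shortened tissue. The same shift ran over the whole array, where 16.4% of all probes were then called higher and 54.2% lower in stretched tissue, and 17.4% higher and 55.7% lower in shortened tissue. The settings had different animals, and setting and array batch cannot be told apart, and the 2 pieces of an animal are not independent evidence.

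The largest decreases ex vivo were those of leukocyte chains and of Lama2 and Lama4. Itgam had 5.53, 6.28, 7.50 and 5.58 in ex vivo stretched tissue, against 9.16, 9.63 and 10.22 in in vivo stretched tissue (lowest, median and highest). In shortened tissue it had 6.89, 5.94, 6.60 and 6.09 ex vivo and 9.53, 9.93 and 10.42 in vivo. Every ex vivo sample lay below every in vivo sample, and the change was -3.03 (SE 0.34, 8.14-fold lower, adjusted p = 7.51e-06) in stretched and -3.20 (SE 0.22, 9.22-fold lower, adjusted p = 7.73e-08) in shortened tissue. Itgb2 fell by 1.54 in stretched and 1.89 in shortened tissue, and Itgax, an alpha chain of dendritic cells and macrophages, fell by 1.94 and 2.02. Itgae fell by 0.54 and 0.47. Itgal, the alpha chain of the lymphocyte receptor for ICAMs, fell by 0.52 in shortened tissue and differed by -0.39 in stretched tissue (adjusted p = 0.0594). Itgb7 fell by 0.41 in shortened tissue and differed by 0.20 in stretched tissue (adjusted p = 0.439). The value of 0.20 is smaller in size than the subtracted median change of -0.38, so its direction rests on that step. In stretched tissue 4 of 6 leukocyte chains were called, all lower, where 66.1% of all genes were called and 36.6% lower. In shortened tissue 6 of 6 were called lower, where 68.9% of all genes were called and 38.8% lower.

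Macrophage markers were lower ex vivo as well, with 13 of 18 called lower and 3 higher in each kind of piece. The counts of markers here are read against all genes, with 29.5% called higher and 36.6% lower in stretched tissue. In shortened tissue 30% of all genes were called higher and 38.8% lower. The mean macrophage level was 8.59 to 9.88 in ex vivo stretched and 9.003 to 9.94 in ex vivo shortened tissue, against 11.31 to 11.73 in in vivo stretched and 11.43 to 11.81 in in vivo shortened tissue. The macrophage scavenger receptor Cd163 fell by 5.52 in stretched and 4.69 in shortened tissue, and the growth factor receptor Csf1r fell by 3.32 and 2.78. Lymphocyte markers were at 4.60 to 4.96 in ex vivo stretched and 4.75 to 4.93 in ex vivo shortened tissue, against 5.67 to 6.17 and 5.73 to 5.99 in the matching in vivo tissue, with 11 of 14 called lower in each. Neutrophil markers were called both ways, 5 higher and 5 lower of 13 in stretched and 7 higher and 4 lower in shortened tissue. Their part in the leukocyte chains was not tested.

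**Figure D3:**
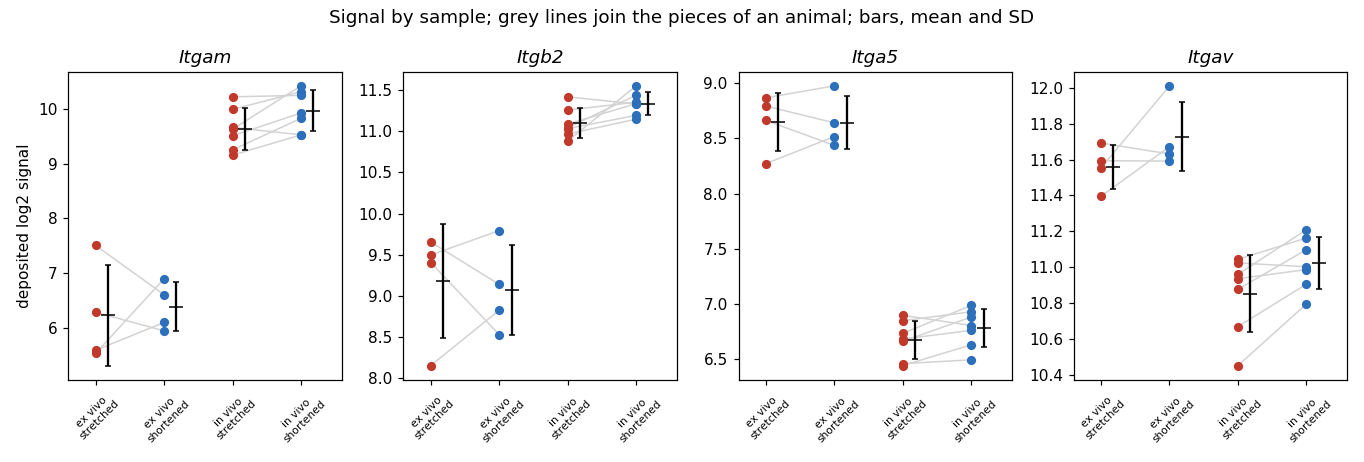
Log2 signal of the leukocyte chains Itgam and Itgb2 and the matrix receptor chains Itga5 and Itgav in each sample of the 4 groups; red points are stretched and blue points shortened pieces, grey lines join the pieces of an animal, and black bars are the mean and SD (n = 4 ex vivo, n = 7 in vivo). Itgam lies between 5.53 and 7.50 ex vivo and between 9.16 and 10.42 in vivo, and Itga5 between 8.27 and 8.98 ex vivo and between 6.44 and 6.99 in vivo.

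Among the laminin chains, Lama2 fell by 2.95 in stretched tissue (SE 0.14, 7.74-fold lower, adjusted p = 6.68e-09) and by 2.30 in shortened tissue (SE 0.16, 4.92-fold lower, adjusted p = 7.33e-08). Its signals of 8.16 to 8.90 in ex vivo stretched and 8.80 to 9.81 in ex vivo shortened tissue lay below those of 11.43 to 12.04 in in vivo stretched and 11.77 to 12.18 in in vivo shortened tissue, with no overlap. Lama4 fell by 1.78 in stretched and 2.05 in shortened tissue, but a second Lama4 probe differed by 0.05 (SE 0.67) and -0.12 (SE 0.71) and was called in neither. The beta chains Lamb1, Lamb2 and Lamb3 were all lower, by 0.35, 1.26 and 0.95 in stretched and by 0.44, 1.54 and 1.17 in shortened tissue, and the gamma chain Lamc1 was lower by 0.70 and 0.77, though its second probe was not called, at -0.67 (SE 0.40) and -0.47 (SE 0.35). Lama3 fell by 0.51 in stretched tissue and differed by -0.13 in shortened tissue (adjusted p = 0.455).

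Other laminin chains were higher ex vivo. Lamc3, a gamma chain of few tissues, rose by 0.98 in stretched tissue (SE 0.11, adjusted p = 8.33e-06) and by 1.17 in shortened tissue (SE 0.11, adjusted p = 1.09e-06). Its second probe differed the other way, at -0.31 and -0.17, with adjusted p of 0.0632 and 0.172. Lama1, the alpha chain of embryonic basement membranes, rose by 0.72 and 0.76 at a low signal of 3.64 to 3.98 in ex vivo stretched and 3.80 to 3.90 in ex vivo shortened tissue. Lama5, the alpha chain of mature epithelia and vessels, rose by 0.21 in shortened tissue (adjusted p = 0.0441) and differed by 0.03 in stretched tissue. Both values are smaller in size than the subtracted median change of -0.38, so their direction rests on that step. The second Lama5 probe rose by 0.25 in shortened tissue and was not called (adjusted p = 0.0520).

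Receptors of fibronectin, vitronectin and collagen went both ways. Fibroblast markers were called lower for 14 of 18 and higher for 2 in each kind of piece, with medians of -0.82 in stretched and -0.95 in shortened tissue, and their part in these changes was not tested. Among all genes, 36.6% were called lower and 29.5% higher in stretched, and 38.8% lower and 30% higher in shortened tissue. Itga5 had 8.79, 8.66, 8.87 and 8.27 in ex vivo stretched tissue, against 6.44, 6.68 and 6.90 in in vivo stretched tissue, and 8.64, 8.44, 8.98 and 8.52 in ex vivo shortened tissue, against 6.49, 6.80 and 6.99 in in vivo shortened tissue. Every ex vivo sample lay above every in vivo sample. Itga5 rose by 2.36 (SE 0.13, 5.12-fold, adjusted p = 2.27e-08) in stretched and 2.24 (SE 0.13, 4.73-fold, adjusted p = 1.19e-08) in shortened tissue, the largest increase of any member in both, and its second probe rose by 2.34 and 2.53.

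Itgav had 11.40 to 11.69 in ex vivo stretched and 11.59 to 12.01 in ex vivo shortened tissue, against 10.45 to 11.04 and 10.80 to 11.21 in the matching in vivo tissue, with no overlap. It rose by 1.09 in both (SE 0.11 and 0.10, adjusted p = 4.34e-06 and 7.66e-07), and its other probes were called higher as well. Itgb3, which pairs with Itgav, rose by 0.99 in stretched (SE 0.14, adjusted p = 4.54e-05) and 1.35 in shortened tissue (SE 0.16, adjusted p = 1.29e-05). Itgb5, another partner of Itgav, fell by 1.43 (SE 0.15) and 1.60 (SE 0.10) in the same samples. Itga2 rose by 0.62 and 0.54, and Itgb1 by 0.51 and 0.41, but neither passed without subtracting the median change. There Itga2 differed by 0.24 and 0.16, and Itgb1 by 0.13 and 0.03. Of 6 Itgb1 probes 5 were called higher in each kind of piece after centring. The second Itgb1 probe was not called, at 0.24 (adjusted p = 0.0988) and 0.14 (adjusted p = 0.273). Both of its values are smaller in size than the subtracted median change of -0.38.

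The remaining receptor chains were lower or not called. Itgb4 fell by 1.20 in stretched and 1.23 in shortened tissue, and its partner Itga6 by 0.59 and 0.65, but the second Itga6 probe was not called, at -0.09 (adjusted p = 0.7097) and -0.23 (adjusted p = 0.361). Keratinocyte markers lay at 4.62 to 4.87 in ex vivo stretched and 4.75 to 4.92 in ex vivo shortened tissue, against 5.08 to 5.88 and 5.16 to 5.53 in the matching in vivo tissue, and nerve markers at 8.51 to 8.85 and 8.41 to 9.02, against 8.81 to 9.26 and 8.71 to 9.70. Their part in these changes was not tested. Itga4 fell by 0.93 and 1.03, though its 3 probes were called both ways in shortened tissue, and Itga9 fell by 0.72 and 0.99. The second Itga9 probe differed the other way and was not called, at 0.30 (adjusted p = 0.0821) and 0.38 (adjusted p = 0.125). All probes had the same sign in 8 of 14 members with several probes in stretched and in 10 in shortened tissue. Itga7 differed by 0.03 (SE 0.40) in stretched and 0.33 (SE 0.25) in shortened tissue, with the sign turned where the median was not subtracted (-0.35 and -0.05). Itga2b, Itga3, Itga8 and Itgb6 lay between -0.08 and 0.15 in stretched and between -0.11 and 0.17 in shortened tissue, and none was called. A second Itga3 probe rose by 1.57 and 1.51. After centring, 4 members lay wholly above and 13 wholly below the in vivo samples in stretched tissue, against 49.3% of all genes without overlap (22.4% above and 26.9% below), and 5 above and 13 below in shortened tissue, against 55.5% (24.2% above and 31.3% below).

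**Figure D4:**
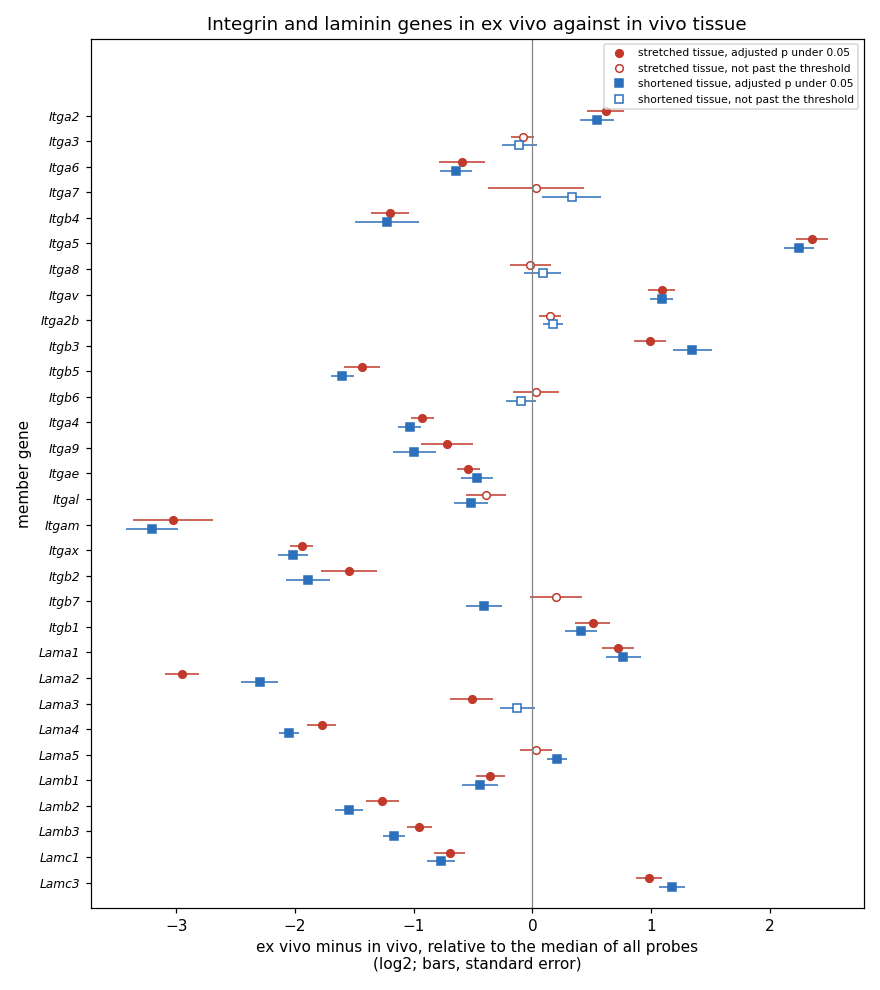
Ex vivo minus in vivo log2 change of 31 integrin and laminin genes relative to the median of all probes, in stretched (red circles) and shortened (blue squares) tissue; bars are SE, filled symbols passed an adjusted p of 0.05 and open symbols did not. The changes run from -3.20 for Itgam to 2.36 for Itga5.

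Control probes for the 3' and 5' ends of Gapdh, whose difference grows as RNA degrades, split the in vivo animals. The 3' minus 5' difference was 0.06 to 0.91 in ex vivo stretched, 0.05 to 0.17 in ex vivo shortened, 0.12 to 3.61 in in vivo stretched and 0.11 to 2.96 in in vivo shortened tissue. In vivo animals 1 to 3 lay at 0.11 to 0.27, within the ex vivo range, and animals 4 to 7 at 0.87 to 3.61. The pieces of in vivo animal 7 differed most, at 0.87 in the stretched and 2.96 in the shortened one. Of 13 adipocyte markers 10 were called lower and none higher ex vivo in each kind of piece, with mean levels of 8.19 to 8.67 in ex vivo stretched and 7.65 to 9.18 in ex vivo shortened tissue, against 8.67 to 11.72 and 9.18 to 11.45 in the matching in vivo tissue. Among all genes, 36.6% were called lower in stretched and 38.8% in shortened tissue. The part of RNA quality or of adipocytes in the changes of the integrin and laminin genes was not tested.

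The promoter sequence of the members that moved most between the settings shows what lies just before their start sites. Sequences were those of RefSeq on mouse build GRCm38.p6, 250 bases before a start on the gene's own strand, and 19 of 31 members had at least 1 such window, 22 windows in all. Of these, 14 overlap the annotated span of their own gene, since genes have several starts. Among the windows that lie before the gene, those of the chains that rose or fell most are shown, Itga5 and Itga2 for the higher and Itgam and Itgb5 for the lower. Capitals mark 2 short motifs, read on either strand: GAGGAA, a core of sites for the myeloid factor PU.1 (TTCCTC on the opposite strand), and GGGCGG, the GC box of Sp1 (CCGCCC on the opposite strand).
Itga5, chr15:103366792-103367041, minus strand: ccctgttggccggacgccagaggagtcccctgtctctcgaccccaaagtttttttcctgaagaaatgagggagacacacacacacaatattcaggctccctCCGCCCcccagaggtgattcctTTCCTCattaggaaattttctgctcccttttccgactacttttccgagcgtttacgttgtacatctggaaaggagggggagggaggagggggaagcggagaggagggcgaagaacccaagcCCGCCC
Itga2, chr13:114932101-114932350, minus strand: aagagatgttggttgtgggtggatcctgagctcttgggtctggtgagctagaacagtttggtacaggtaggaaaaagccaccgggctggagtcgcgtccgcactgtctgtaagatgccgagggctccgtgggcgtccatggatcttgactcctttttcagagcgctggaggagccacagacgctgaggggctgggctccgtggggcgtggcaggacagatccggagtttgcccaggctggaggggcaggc
Itgam, chr7:128062390-128062639, plus strand: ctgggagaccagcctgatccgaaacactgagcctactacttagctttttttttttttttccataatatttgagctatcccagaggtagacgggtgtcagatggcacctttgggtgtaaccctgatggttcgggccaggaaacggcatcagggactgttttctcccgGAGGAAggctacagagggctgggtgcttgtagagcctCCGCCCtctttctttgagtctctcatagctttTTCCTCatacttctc
Itgb5, chr16:33829415-33829664, plus strand: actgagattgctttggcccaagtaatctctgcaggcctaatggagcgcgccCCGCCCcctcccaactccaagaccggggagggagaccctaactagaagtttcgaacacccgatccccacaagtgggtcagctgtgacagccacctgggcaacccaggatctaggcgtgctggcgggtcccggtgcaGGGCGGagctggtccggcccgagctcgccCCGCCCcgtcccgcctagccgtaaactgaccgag

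The window of Itgam held GAGGAA at 84 to 79 bases before the start and, on the opposite strand, at 15 to 10, and 1 GC box at 47 to 42. That of Itga5 held 1 GAGGAA on the opposite strand, at 127 to 122, and GC boxes at 149 to 144 and 6 to 1. Itgb5 held 3 GC boxes and no GAGGAA, and Itga2 neither. Over all members with a window, 12 of 19 held GAGGAA, against 23.25% of 32851 RefSeq windows of this length, and 8 held GGGCGG, against 32.74%. The last motif searched, TGANTCA of AP-1 sites, which overlaps neither, was found in 1 member, Itgax, at 56 to 50 bases before the start, against 6.749% of windows. Members with several windows had more chances of a match. These matches are letters in a window, and GAGGAA was found before chains that rose as well as before chains that fell.

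The wider pathway was followed in 4 lists of genes named for their function. Their counts between settings are read against all genes, of which 66.1% were called in stretched tissue (29.5% higher and 36.6% lower). In shortened tissue 68.9% of all genes were called (30% higher and 38.8% lower). Of 21 basement membrane partners of laminin, such as type IV collagens and nidogens, 15 were called in stretched tissue, 1 higher and 14 lower ex vivo, and 16 in shortened tissue, 1 higher and 15 lower, with medians of -0.88 and -0.87 against -0.08 and -0.09 for all genes. The higher one was Agrn, a proteoglycan that gathers receptors at the nerve-muscle synapse, which rose by 1.49 and 1.39. Col4a4 fell by 2.60 and 2.54. Of 22 integrin ligands other than laminin, 8 were called higher and 4 lower in stretched and 11 higher and 6 lower in shortened tissue. Tnc, tenascin-C, a ligand of Itga9 and Itgav dimers, rose by 3.39 and 3.54, while Tgfbi, a matrix protein bound by integrins, fell by 2.72 in stretched and fell by 2.43 in shortened tissue.

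Among all genes, 29.5% were called higher and 36.6% lower in stretched, and 30% higher and 38.8% lower in shortened tissue. Of 31 integrin adaptors and activators, 10 were called higher and 15 lower in stretched and 8 higher and 17 lower in shortened tissue. Among them Parvg, the parvin of leukocytes, fell by 1.72 and 1.69, and Rasgrp2, an activator of integrins in platelets and leukocytes, fell by 3.27 and 2.99. Of 15 genes of the dystrophin-associated complex, a laminin receptor of muscle that is no integrin, 1 was called higher and 8 lower in stretched and 3 higher and 7 lower in shortened tissue. Its epsilon-sarcoglycan gene Sgce fell by 1.68 and 1.82.

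Between the pieces of an animal no gene of these 4 lists was called. In vivo, integrin adaptors had a median difference of -0.08 with 23 of 31 lower in stretched tissue, 9 of them at an unadjusted p under 0.05, and the basement membrane partners one of -0.01 with 5 lower and 1 higher at that level. Ex vivo, basement membrane partners had a median of -0.10 with 14 of 21 lower, and 5 at an unadjusted p under 0.05, all lower. Col4a5, a chain of type IV collagen, differed by -0.80 ex vivo (SE 0.14, adjusted p = 0.352), next to the -0.83 of Lama2, and the effect ex vivo minus that in vivo was -0.68 for Col4a5 (SE 0.16, adjusted p = 0.0836).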

How the data were processed

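The deposited table holds log2 signals of 22690 array probes in 22 samples, made by the authors with RMA in affy, per the submitters' processing notes. No version or annotation build is given in the sources used here, and no scanner files were used. Sample medians differ between the settings (6.85 to 6.90 ex vivo, 7.28 to 7.41 in vivo), so the settings may have been normalised apart, and the comparisons between them were made after subtracting the median change of all probes. After 64 control probes were left out, 22626 probes were tested, of which 20380 had 1 gene symbol in the platform annotation, 691 several and 1555 none. Probes were assigned to genes only where they had 1 symbol.

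Fits used limma 3.58.1 in R 4.3.3 with a mean-variance trend and Benjamini-Hochberg adjustment over all tested probes, at a threshold of 0.05. Tables were handled in Python 3.11.15 with pandas 2.3.3 and numpy 2.4.6. The stretch comparisons and their difference had the animal as a block, since the design text states that both pieces came from 1 animal and same-numbered pieces are taken as that animal's. Deviations of same-numbered samples correlated at 0.11 to 0.28 ex vivo and 0.38 to 0.87 in vivo, and a piece correlated best with its own number in 3 of 4 ex vivo and 6 of 7 in vivo animals. The difference of the stretch effects uses the same samples as the stretch comparisons, and both comparisons between settings share animals.

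Members with an unadjusted p under 0.05 in a stretch comparison, the 6 with the largest called change in each direction between the settings, and Itga7, Lama2, Itgb1, Itga5, Itgav and Itgam in every comparison are given with values. Members and gene lists were chosen with earlier results of these data known. Tested on simulated data with independent noise for each probe, a log2 change of 1 was recovered for 95 of 100 probes in the in vivo and 81 of 100 in the ex vivo stretch comparison. Smaller changes, such as those of the members between pieces, were not simulated, so these rates do not cover them. In the measured data no sarcomere marker was called, although their median difference was 1.62 in vivo and 1.78 ex vivo. Alternatives were quantile normalisation, a filter on dim probes, no trend, array weights, muscle level as a covariate, other probes, other blocks, no centring and leaving out animals.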

Additional observations from a re-analysis of the deposited data

Results flagged for a closer look

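In 10 of 186 sets of 4 to 7 values, the highest or lowest value lay farther from its neighbour, as a share of the set's range, than Dixon's critical value at the 0.05 level, which chance alone passes in about 1 set in 20. Ex vivo stretched tissue of animal 1 was lowest for Itgb1, at 10.40 against 10.79 to 10.83, and that of animal 4 lowest for Itgb2, at 8.15 against 9.40 to 9.65. Ex vivo shortened tissue of animal 3 was highest for Itga2, at 5.84 against 5.38 to 5.42. That of animal 2 was lowest for Itga2b, at 6.99 against 7.24 to 7.29, and that of animal 1 lowest for Lama3, at 4.29 against 4.87 to 4.97.

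In vivo stretched tissue of animal 1 was lowest for Itga6, at 9.29 against 10.17 to 10.51, and highest for Itga9, at 7.98 against 6.67 to 7.13. In vivo stretched tissue of animal 2 was highest for Lamb3, at 6.16 against 5.81 to 5.95. In vivo shortened tissue of animal 1 was highest for Itgb6, at 4.27 against 3.52 to 3.72. Among within-animal differences, that of Itgb5 was highest in ex vivo animal 1, at 0.49 against 0.06 to 0.07 in the other 3.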

How the results depend on the processing

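Of 1010 values of single genes under the alternatives, 956 kept their direction and side of the threshold, 38 turned direction, 11 lost the call and 5 gained it. The count of 11 members at an unadjusted p under 0.05 in vivo became 2 with muscle level as a covariate, 6 with all samples in 1 fit, and 6 in each of animals 1 to 3 and 4 to 7, and ran over 8 to 12 when 1 animal was left out. The share of all probes at that level was 19.3%, and under these alternatives 4.87%, 15.5%, 8.76% and 9.53%. The ex vivo count of 3 became 1 with dim probes left out, 1 with the covariate and 5 with all samples in 1 fit, where 1 member (Lama2) was called, and ran over 3 to 4. The share of all probes was 11.1%, and under these alternatives 14.4%, 8.72% and 18.2%. For the difference of effects, array weights called 1 member (Lama2) and leaving out 1 animal called 0 to 2, and the count of 5 became 3 without dim probes and ran over 3 to 8. Between settings, leaving out 1 animal called 22 to 24 in stretched and 22 to 25 in shortened tissue, and 15 of the 20 members left were called in stretched tissue without dim probes, against 66.7% of all such probes. Without the replicate block that pairs the pieces of an animal, the counts at an unadjusted p under 0.05 were 4 in vivo and 2 for the difference of effects, with 4.77% and 6.34% of all probes. With numbers 1 to 4 as a replicate block between settings, which pairs no animals, 21 were called in stretched and 20 in shortened tissue, and Itga2 lost its call in both (0.55 and 0.44) and Itgb1 in shortened tissue (0.30).

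Directions turned as follows, and the cause was not tested. With the covariate, Itgb1 was 0.018 in vivo and -0.031 ex vivo, and Itga7 -0.042 ex vivo. Without the pairs whose pieces were least alike in muscle level, ex vivo values were -0.028 for Itga7 and -0.041 for Itgb1. In that fit the differences of effects were -0.031 for Itgb1 and -0.20 for Itgam. Pairs with a high muscle level in both pieces were kept. With array weights, ex vivo values were -0.026 for Itga5 and 0.048 for Itgam, the difference of effects was -0.038 for Itgav, and Itga7 was -0.13 between settings in stretched tissue. On the second probe, Itga5 was 0.0072 in vivo and -0.19 ex vivo, with a difference of effects of -0.19, Itgb1 was -0.0047 ex vivo and Itgav -0.15 for the difference of effects. On the same probe rank Lama4 was 0.053 in stretched tissue, and Lamc3 was -0.31 in stretched and -0.17 in shortened tissue between settings. Not centred, Itga7 was -0.35 in stretched and -0.052 in shortened tissue there. Leaving out 1 animal, ex vivo values ran over -0.086 to 0.46 for Itga7, -0.0050 to 0.13 for Itgb1, -0.067 to 0.090 for Itga5 and -0.51 to 0.24 for Itgam. Differences of effects ran over -0.52 to 0.027 for Itga7, -0.073 to 0.10 for Itgav and -0.17 to 0.58 for Itgam, and Itga7 between settings in stretched tissue over -0.24 to 0.22. Signal near background limits the 11 dim members, and 4 ex vivo animals limit what small differences can be told apart.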
